A study of Homo sapiens with 6 samples.

Results

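The metallothioneins studied here are MT2A, MT1E, MT1X, MT1F, MT1G, MT1A and MT1M, 7 genes chosen by name from the 25368 gene symbols of the RNA-seq tables. All 7 have a row in both tables. RNA was taken from MRC5, human lung fibroblasts of embryonic origin that had been immortalised with hTERT and were grown in DMEM with 10% fetal bovine serum. In the JUN overexpression table the cells were infected with adenovirus for 2 h and cultured for 3 days. The virus carried an empty vector (control), FLAG-tagged JUN WT, or FLAG-tagged JUN AA, in which Ser63 and Ser73, the sites that the kinase JNK phosphorylates, were changed to alanine. In the JNKi table, MRC5 were compared with induced CAFs (iCAFs), which are MRC5 kept for 7 days in medium conditioned by MDA-MB-231, a breast cancer line. That medium had been collected from tumour cells kept without serum, so the tumour cell products and the change of medium cannot be told apart. The iCAFs+JNKi library received 1 µM of the JNK inhibitor JNK-IN-8 over 48 h. The label of the iCAFs library does not say whether it received the vehicle. Each of the 6 conditions has 1 library from 1 line, so the differences below could not be checked on replicates and were not tested.

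Metallothioneins are small, cysteine-rich proteins that bind zinc and copper and can take up toxic metals such as cadmium. Their genes lie side by side and are switched on by metals through the zinc-sensing transcription factor MTF1, which binds metal response elements, and by glucocorticoids, inflammatory cytokines and oxidative stress. MT2A is the most widely expressed human member, and the MT1 genes are close copies that differ in how readily each cell type uses them. AP-1, the factor that contains JUN, was characterised early on at the MT2A promoter.

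All members lie on chromosome 16 of GRCh37, the genome build that the deposited values were computed on under its name hg19. MT2A spans positions 56642496 to 56643409, MT1E 56659387 to 56661024, MT1M 56666571 to 56667893, MT1A 56672578 to 56673999, MT1F 56691871 to 56693215, MT1G 56700642 to 56701977 and MT1X 56716382 to 56718108. MT1G is the only one of the 7 on the minus strand. Each has 3 exons, and the annotated transcripts are 396 to 425 bases long except that of MT1E, which is 704 bases. The coding sequences are 186 bases long, 189 in MT1G. Those of MT1E and MT1X are shown with that of MT2A because these 3 genes carry nearly all of the signal. MT1L is an expressed pseudogene at positions 56651475 to 56652592. Its whole annotated transcript, also 186 bases, is shown because its row is read beside that of MT1E below. They are read from GRCh37, and capitals mark the bases that differ from MT2A.
MT2A: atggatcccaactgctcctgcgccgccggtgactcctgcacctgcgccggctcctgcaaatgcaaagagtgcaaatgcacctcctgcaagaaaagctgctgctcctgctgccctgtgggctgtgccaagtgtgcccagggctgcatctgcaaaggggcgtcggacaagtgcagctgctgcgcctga
MT1E: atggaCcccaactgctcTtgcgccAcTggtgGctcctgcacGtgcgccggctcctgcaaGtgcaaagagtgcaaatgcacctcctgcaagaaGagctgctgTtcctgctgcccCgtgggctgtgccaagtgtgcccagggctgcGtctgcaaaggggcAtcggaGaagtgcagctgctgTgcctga
MT1X: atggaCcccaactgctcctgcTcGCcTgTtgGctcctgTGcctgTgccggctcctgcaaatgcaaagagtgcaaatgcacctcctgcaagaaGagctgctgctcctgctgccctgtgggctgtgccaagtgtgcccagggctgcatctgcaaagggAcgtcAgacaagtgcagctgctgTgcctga
MT1L: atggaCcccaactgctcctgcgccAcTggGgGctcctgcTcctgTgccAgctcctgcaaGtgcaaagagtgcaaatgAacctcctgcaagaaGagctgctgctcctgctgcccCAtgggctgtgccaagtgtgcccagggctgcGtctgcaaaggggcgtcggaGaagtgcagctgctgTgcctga
MT1E and MT1X each differ from MT2A at 14 of 186 coding bases. The MT1L transcript differs from the coding sequence of MT2A at 16 bases and from that of MT1E at 10. Read in the frame of MT2A, it has a stop, tgA, before its end. MT1A differs from MT2A at 14, MT1F at 16 and MT1M at 19.

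The RefSeq promoter table (GRCh38.p14) holds 2 of the 7 members, MT2A and MT1X, and their 250 bases before the start site are shown because JUN binds AP-1 sites. Capitals mark matches on either strand to the metal response element core (TGCACNC or TGCGCNC), to AP-1 (TGACTCA or TGAGTCA) and to the antioxidant response element core (TGACNNNGC).
MT2A promoter, plus strand, chr16:56608334-56608583: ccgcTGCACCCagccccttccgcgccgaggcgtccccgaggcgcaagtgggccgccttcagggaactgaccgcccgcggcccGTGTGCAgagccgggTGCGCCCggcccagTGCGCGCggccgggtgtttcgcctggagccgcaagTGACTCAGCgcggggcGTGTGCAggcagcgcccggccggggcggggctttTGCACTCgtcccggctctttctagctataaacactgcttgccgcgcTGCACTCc
MT1X promoter, plus strand, chr16:56682220-56682469: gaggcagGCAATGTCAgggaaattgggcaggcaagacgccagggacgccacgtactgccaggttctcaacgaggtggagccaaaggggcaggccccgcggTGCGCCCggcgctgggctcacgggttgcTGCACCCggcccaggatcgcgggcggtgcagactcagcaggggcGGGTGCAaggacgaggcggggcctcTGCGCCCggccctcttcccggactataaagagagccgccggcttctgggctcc
MT2A has 7 matches to the metal response element core, a number reached by 0.0313% of 35116 promoters of the same length, and MT1X has 4, reached by 0.37%. At least 1 such match is present in 24.8% of promoters. MT2A has 1 AP-1 match, 104 to 98 bases before the start, which overlaps its antioxidant response element match. MT1X has no AP-1 match in these 250 bases and 1 antioxidant response element match, 243 to 235 bases before the start. AP-1 matches are present in 4.2% and antioxidant response element matches in 10.9% of promoters. These are matches of letters and say nothing on binding in these cells.

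The values are FPKM, fragments scaled to exon length and to the mapped fragments of the library, so levels can be set side by side between genes and only within a table. They summed to 494603, 498514 and 613184 over all genes in control, JUN WT and JUN AA, and to between 359944 and 399532 in the JNKi table. JUN was at 25.5 FPKM in control cells, 4543 FPKM with JUN WT and 291 FPKM with JUN AA, so the libraries labelled JUN WT and JUN AA differ in the amount of JUN mRNA as well as in the mutation, and these cannot be told apart. All 10 fibroblast markers checked, such as COL1A1 and VIM, were at 1 FPKM or more in every library, and several of them differed between libraries, as given below. CDH1 and ESRP1, which mark epithelial cells such as those of a carcinoma line, were listed at 0 in all 6 libraries, and EPCAM was at most at 0.243 FPKM. The keratins KRT8 and KRT18 were at 5.80 to 36.7 FPKM. Of 3 endothelial markers none reached 1 FPKM, and of 3 leukocyte markers only CD68 did, at 31.1 to 85.7 FPKM.

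MT2A mRNA was among the most abundant of all genes in every library. In the JUN overexpression table it was at 2809 FPKM in control cells, 3055 FPKM with JUN WT and 4179 FPKM with JUN AA. In the JNKi table it was at 1579 FPKM for MRC5, 3827 FPKM for iCAFs and 1796 FPKM for iCAFs+JNKi. MT2A ranked between 11 and 15 from the top in 5 libraries and 2 from the top in iCAFs. The iCAFs library thus stood above the others of its table. In bulk RNA a change in the share of cells that make a transcript and a change in the amount per cell cannot be told apart.

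**Figure D1:**
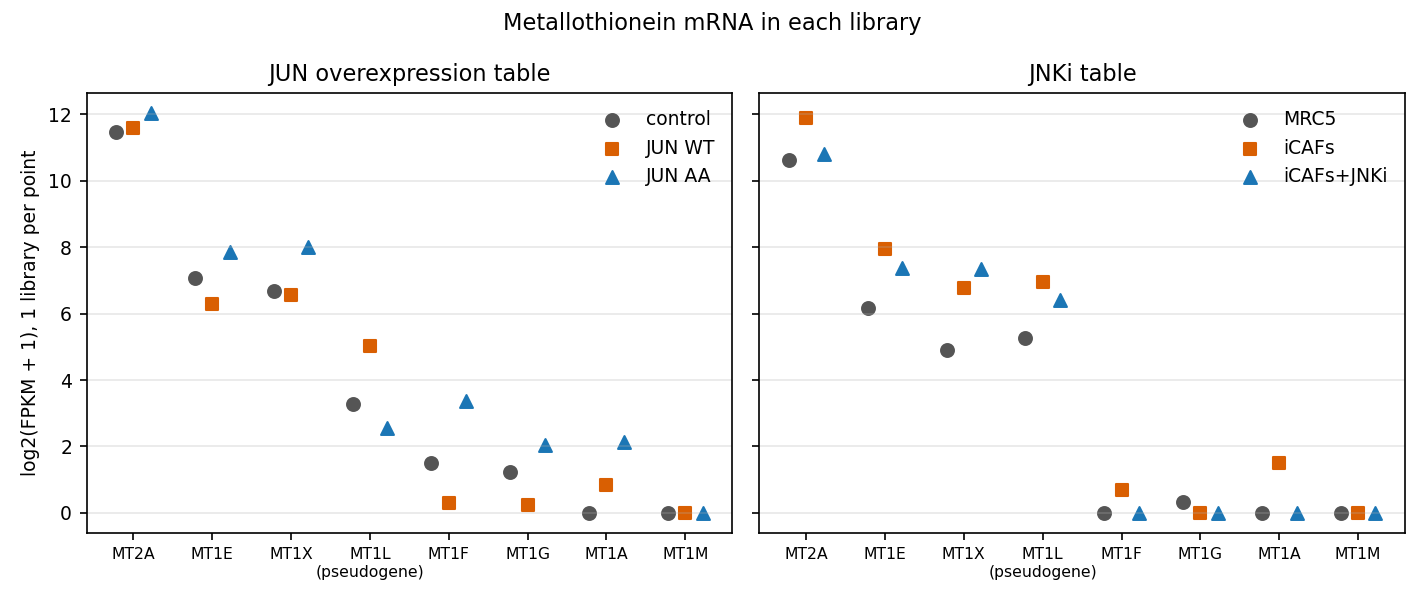
Level of each metallothionein as log2(FPKM + 1), 1 point per library, with the JUN overexpression table on the left and the JNKi table on the right. MT2A lies far above the rest, MT1E and MT1X form a second tier, MT1M is at 0 in every library, and the pseudogene MT1L is shown beside the members.

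MT1E and MT1X formed a second tier more than 10-fold below MT2A. MT1E was at 134 FPKM in control cells, 77.7 FPKM with JUN WT and 231 FPKM with JUN AA, and at 71.7 FPKM for MRC5, 244 FPKM for iCAFs and 163 FPKM for iCAFs+JNKi. MT1X was at 101, 93.3 and 254 FPKM in the control, JUN WT and JUN AA, and at 29.0, 108 and 163 FPKM in MRC5, iCAFs and iCAFs+JNKi. Both were highest in JUN AA within their first table. In the JNKi table MT1E was highest in iCAFs, as MT2A was, whereas MT1X was highest in iCAFs+JNKi.

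The remaining members were low or not listed. MT1F was at 1.86 FPKM in control cells, 0.222 FPKM with JUN WT and 9.24 FPKM with JUN AA, and in the JNKi table it was above 0 only in iCAFs, at 0.599 FPKM. MT1G was at 1.36 FPKM in control cells, 0.184 FPKM with JUN WT and 3.10 FPKM with JUN AA, and at 0.261 FPKM in MRC5 and at 0 in the libraries made with conditioned medium. MT1A was listed at 0 for control cells, at 0.798 FPKM with JUN WT and at 3.37 FPKM with JUN AA, and in the JNKi table it was above 0 only in iCAFs, at 1.81 FPKM. All 3 were highest in JUN AA within the JUN overexpression table. MT1M, which other tissues express, was listed at 0 in all 6 libraries. The number of members above 0 was 5, 6 and 6 in the control, JUN WT and JUN AA, and 4, 5 and 3 in MRC5, iCAFs and iCAFs+JNKi. How many fragments stand behind values this low is not given by FPKM. Multiplied by transcript length, MT1F and MT1G in JUN WT came to 1.85 and 1.48 times the commonest low value of that library, and MT1G in MRC5 came to 2.02 times that of its own, so they lie near the lower limit of these tables.

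Comparisons were made as differences of log2(FPKM + 1), a scale that understates the change of low genes, and a difference of at least 1 in size was counted as 2-fold. The background is every gene whose mean over the 3 libraries of a table reached 1 FPKM, which left 10311 genes for JUN overexpression and 11780 for JNKi. All members but MT1M, 6 of 7, passed this limit in the JUN overexpression table, and MT1A and MT1G did so only through their values in JUN AA. In the JNKi table MT2A, MT1E and MT1X passed. Counts and medians of members below are over all 7, whereas shares and medians of all genes are over those that passed.

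The comparison of JUN WT with control asks what more JUN does to these genes. MT2A differed by 0.12, a 1.09-fold higher level in JUN WT, and MT1X by -0.12. MT1E was 1.72-fold lower in JUN WT, a difference of -0.78. Once the median differences of genes of like length and GC content were subtracted, MT1E was at -0.44. MT1F, at -1.23, was the only member at least 2-fold lower, and MT1G lay just inside the limit at -0.996. None of the 7 was at least 2-fold higher, MT1A having its 0.798 FPKM against a listed 0 in the control, for which no fold is given. Of all genes 3.39% were at least 2-fold lower and 6.92% at least 2-fold higher. The median difference of the 7 members was -0.12, beside 0.15 over all genes. Over the 6 members that passed the expression limit it was -0.45. The summed FPKM of the family was 3048 in the control and 3228 in JUN WT, a difference of 0.08. The library with the most JUN mRNA thus differed little from the control in the family total. MT2A made up 92.2% of that total in the control and 94.7% in JUN WT. Without MT2A the difference of the sum was -0.47. With differences centred on the median gene the split of all genes went from 714 higher and 350 lower to 436 higher and 522 lower, and MT2A to -0.03.

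Of the 7 members 6 had a higher value in JUN AA than in the control, all but MT1M, beside 48.6% of all genes. MT1X was 2.51-fold higher, a difference of 1.32. MT1F was 4.97-fold higher at low FPKM, a difference of 1.84, and MT1A was at 3.37 FPKM against a listed 0. MT1E (1.73-fold), MT2A (1.49-fold) and MT1G (2.28-fold, 0.80 on the log2(FPKM + 1) scale) stayed under the limit. Thus 3 of 7 members were at least 2-fold higher and none lower, beside 5.29% and 3.77% of all genes. Of the 3, MT1A passed the expression limit only through its value in JUN AA, and MT1F owed most of its mean to that library. The median difference of the 7 members was 0.80, beside -0.02 over all genes.

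Short transcripts as a class were also higher in JUN AA. The 148 genes whose transcripts are under 600 bases had a median difference of 0.60, and MT2A, with a transcript of 401 bases, was at 0.57. Once the median differences of genes of like length and GC content were subtracted, MT1X was at 0.97, under the limit. The part of transcript length in these differences was not tested. JUN AA also had the largest FPKM sum, and when each library was scaled to one FPKM total the median gene moved to -0.29, the split of all genes from 545 higher and 389 lower to 338 higher and 957 lower, and MT2A to 0.26 and MT1X to 1.01. MT2A was then still 0.55 and MT1X 1.30 above the median gene. That total was 1000000, so rescaling also raised every FPKM, and the added 1 weighed less for low genes. This holds for every rescaled value and split given here.

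Set directly against JUN AA, JUN WT had a lower value for 6 of the 7 members, again all but MT1M, beside 3866 of 10311 genes. MT1E was 2.98-fold lower (-1.56), MT1X 2.72-fold lower (-1.44) and MT2A 1.37-fold lower (-0.45). MT1F differed by -3.07, and 3 of 10311 genes had a lower value. It owed most of its mean to JUN AA, at 9.24 FPKM beside 1.86 FPKM in the control and 0.222 FPKM in JUN WT. That also favoured a lower value in JUN WT. MT1G was at -1.79 and MT1A at -1.28. In all, 5 of 7 members were at least 2-fold lower in JUN WT, beside 5.61% of all genes, and none was higher, beside 6.65%. Of the 5, MT1A and MT1G passed the expression limit only through their values in JUN AA. That favoured a lower value in JUN WT for them, and the count is a description only. The median was -1.44 for the 7 members, 0.18 for all genes and -0.56 for short transcripts. Rescaling moved MT2A to -0.15 and the removal of length and GC trends moved it to -0.16. That removal moved MT1E to -1.03. With rescaling the median gene moved to 0.47 and the split of all genes from 686 higher and 578 lower to 1770 and 364, and centring moved it to 411 and 822. The comparisons with JUN WT and JUN AA share their libraries and are not independent of each other.

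**Figure D2:**
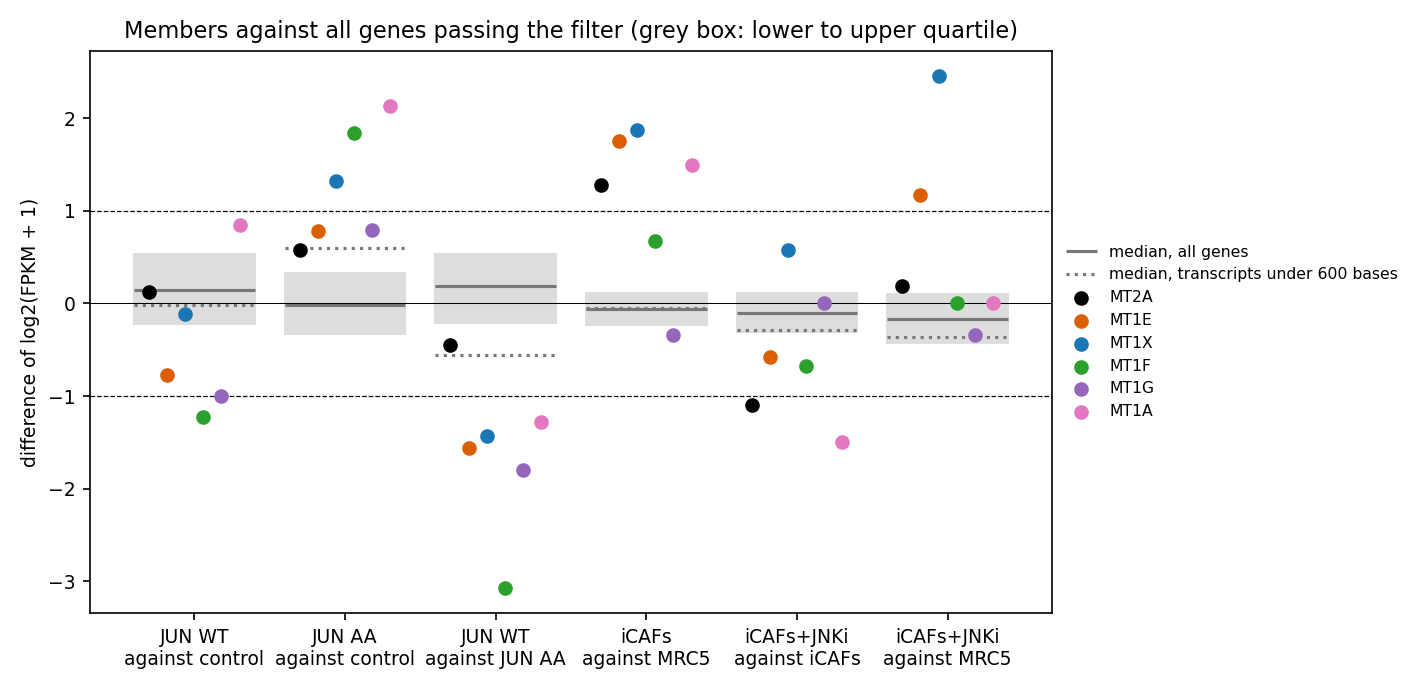
Difference of log2(FPKM + 1) of 6 members in the 6 comparisons (MT1M, at 0 throughout, is left out), with a grey box from the lower to the upper quartile of all genes, a solid line at their median, a dotted line at the median of transcripts under 600 bases, and dashed lines at the 2-fold limit. The members lie above the box in JUN AA against control and, except MT1G, in iCAFs against MRC5, and MT1X lies apart from MT2A in the comparisons with iCAFs+JNKi.

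Conditioned medium went with more metallothionein mRNA. MT2A was 2.42-fold higher in iCAFs than in MRC5 (a difference of 1.28), MT1E 3.41-fold (1.75) and MT1X 3.75-fold (1.87). Of 11780 genes, 1.32% had a larger difference than MT2A, 0.756% than MT1E and 0.671% than MT1X. MT1A differed by 1.49 against a listed 0 in MRC5, MT1F by 0.68, and MT1G by -0.34. Thus 4 of 7 members were at least 2-fold higher and none lower, beside 1.94% and 1.71% of all genes. MT1A, counted among the 4, did not pass the expression limit, and the 3 members that did were all at least 2-fold higher. The median of the 7 members was 1.28, that of all genes -0.06 and that of the 152 short transcripts -0.05, so here the short transcripts did not move with the members. The family total was 1680 FPKM in MRC5 and 4182 FPKM in iCAFs, 0.420% and 1.06% of all FPKM. JUN mRNA itself was at 57.1 FPKM in MRC5 and 55.3 FPKM in iCAFs.

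The JNK inhibitor went with a lower level of MT2A and a higher level of MT1X. MT2A was 2.13-fold lower in iCAFs+JNKi than in iCAFs (a difference of -1.09), which left it 1.14-fold above MRC5 (0.19). Against MRC5 that value was 0.35 with centring and 0.57 with length and GC trends removed. MT1E was 1.5-fold lower (-0.58) and remained 2.28-fold above MRC5 (1.18). MT1X was 1.5-fold higher than in iCAFs (0.58) and 5.63-fold higher than in MRC5 (2.45). Against iCAFs, 1.57% of genes had a lower value than MT2A and 5.19% a higher one than MT1X, so these 2 members lay near opposite ends of the distribution. MT1A, at 1.81 FPKM in iCAFs, was listed at 0, a difference of -1.49. The 2 members at least 2-fold lower were thus MT2A and MT1A, beside 1.97% of all genes, and none was 2-fold higher, beside 2.25%. Of the 2, only MT2A passed the expression limit. JUN mRNA was at 21.1 FPKM in iCAFs+JNKi.

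The value of MT2A lies close to the 2-fold limit. Centring on the median gene gave -0.99 and subtracting the length and GC trends gave -0.80, and either way the count of members at least 2-fold lower went from 2 to 1. The 1 left was MT1A, which did not pass the expression limit. The median difference of short transcripts between iCAFs+JNKi and iCAFs was -0.29, beside -0.10 for all genes and -0.58 for the 7 members. Against MRC5, 2 of 7 members were at least 2-fold higher in iCAFs+JNKi and none lower, beside 3.28% and 3.53% of all genes. The median there was 0 for the 7 members, -0.16 for all genes and -0.36 for short transcripts. That 0 comes from members listed at 0 in both libraries, and the 3 members that passed the expression limit had a median of 1.18. Centring moved the split of all genes from 265 higher and 232 lower to 323 and 182 against iCAFs, and from 386 and 416 to 517 and 267 against MRC5. Rescaling gave 581 higher and 398 lower against MRC5 and moved the median gene there to -0.04.

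The ratios between members differed from library to library. MT2A made up 92.2% of the summed FPKM of the 7 members in control cells, 94.7% with JUN WT and 89.3% with JUN AA, and 94.0% for MRC5, 91.5% for iCAFs and 84.6% for iCAFs+JNKi. MT1X made up 3.32%, 2.89% and 5.43% in the JUN overexpression table, and 1.72%, 2.59% and 7.68% in the JNKi table. MT2A was 54.5 times MT1X in MRC5, 35.3 times in iCAFs and 11.0 times in iCAFs+JNKi. In the JUN overexpression table the ratio was 27.7 in control cells, 32.7 with JUN WT and 16.4 with JUN AA. These ratios are within a library and do not depend on the scaling between libraries. The lowest ratio of MT2A to MT1X was that of JUN AA in the first table and of iCAFs+JNKi in the second. MT1E and MT1X stood at 1.32, 0.833 and 0.911 to 1 in the control, JUN WT and JUN AA, and at 2.48, 2.25 and 1.002 to 1 in MRC5, iCAFs and iCAFs+JNKi.

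**Figure D3:**
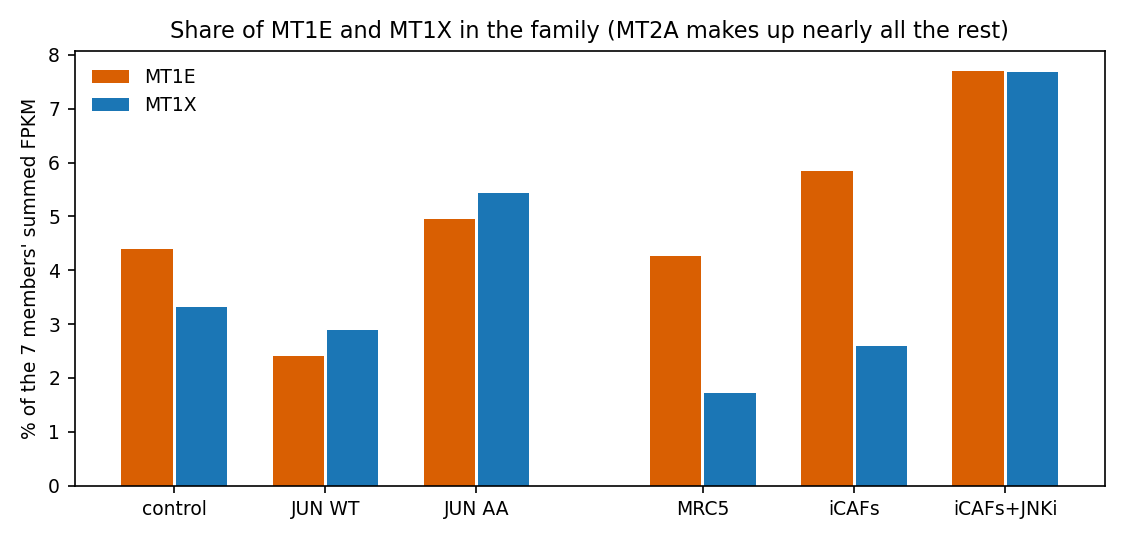
Share of MT1E and of MT1X in the summed FPKM of the 7 members, in percent, as 1 bar per library. MT1X is at 1.72% in MRC5 and at 7.68% in iCAFs+JNKi, next to 7.69% for MT1E.

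Because these genes are short and alike, reads can match more than 1 of them. Of all 50-base stretches of each transcript, 19.9% in MT1G, 18.0% in MT1X, 14.6% in MT1M, 11.1% in MT2A, 6.12% in MT1F, 5.76% in MT1A and 5.34% in MT1E occur without a mismatch in another annotated gene. MT1G and MT1X share the longest run, 96 bases, and MT1X and MT2A share 63. No 100-base stretch is shared. Read length and the treatment of reads with several matches are not given in the sources used here. The values of MT1G, which lies far below MT1X, are therefore uncertain. Those of MT1A and MT1F, also far below MT1X, are uncertain too. Of their 50-base stretches, 4.61% in MT1A and 1.06% in MT1F occur in MT1X. The counts of members at least 2-fold different given above include MT1A, MT1F and MT1G.

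**Figure D4:**
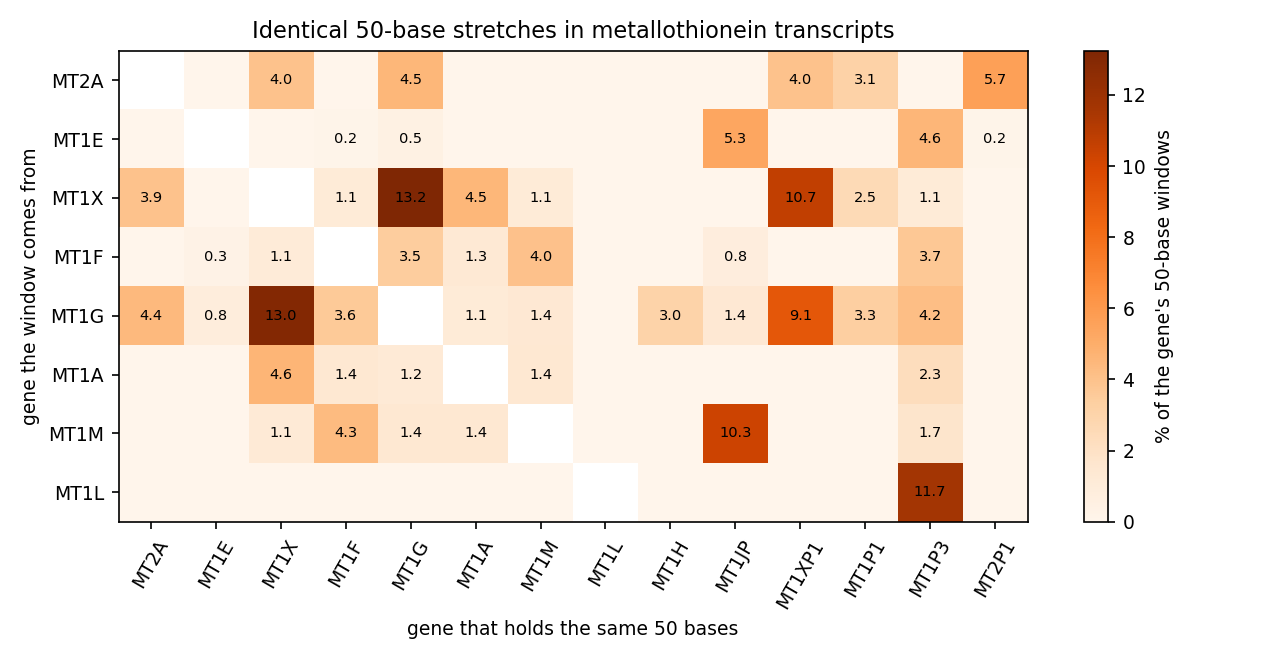
Percent of the 50-base stretches of each transcript (rows) that occur unchanged in another metallothionein gene or pseudogene (columns). MT1G and MT1X share the most, and MT1E and MT1L share none.

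The pseudogene MT1L was the only other metallothionein row past the expression limit. It was at 8.61 FPKM in control cells, 31.9 FPKM with JUN WT and 4.85 FPKM with JUN AA, and at 37.2 FPKM for MRC5, 122 FPKM for iCAFs and 83.6 FPKM for iCAFs+JNKi. In the JNKi table it followed MT1E, which was 1.93, 2.002 and 1.95 times MT1L in the 3 libraries. In the JUN overexpression table the ratio was 15.5 in control cells, 2.44 with JUN WT and 47.8 with JUN AA, so there MT1L was highest where MT1E was lowest. MT1E and MT1L share no 50-base stretch, and their longest identical run is 43 bases. This covers only the annotated transcripts, of 704 bases for MT1E and 186 bases for MT1L. With both rows added, the difference of JUN WT from control was -0.38 in place of -0.78 for MT1E alone, and that of JUN WT from JUN AA -1.10 in place of -1.56. Differences in the JNKi table moved by little, for example from 1.75 to 1.74 in iCAFs. How the deposited values divided reads between these rows was not tested.

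The other rows of the family were near or at 0. MT1H, close to MT1G in position, was at 0.240 FPKM and MT4, known from squamous epithelium, at 0.145 FPKM in JUN WT only. MT3, known from brain, was at 0.0752 FPKM in the control and 0.166 FPKM in JUN AA. MT1B, MT1JP, MT1IP, MT1DP and MT1HL1 were listed at 0 in all 6 libraries. MT1CP and MT1XP1 have no row under these symbols.

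Genes that handle zinc were compared because zinc drives this family. Of 14 zinc importers of the SLC39 family 11 passed the expression limit in each table. SLC39A14 (ZIP14), which brings zinc and iron into the cell and is known to respond to inflammation, was at 14.6 FPKM for MRC5, 54.7 FPKM for iCAFs and 22.5 FPKM for iCAFs+JNKi. On the log2(FPKM + 1) scale it was the only importer at least 2-fold higher in iCAFs (1.83) and the only one at least 2-fold lower with JNKi (-1.25). SLC39A8 was at 1.03 FPKM for MRC5, 2.68 FPKM for iCAFs and 2.71 FPKM for iCAFs+JNKi. It differed by 0.86 between iCAFs and MRC5 on this scale, which understates changes that low. The order of SLC39A14 in the JNKi table was that of MT2A and MT1E and not that of MT1X. In the JUN overexpression table SLC39A14 was at 3.94 FPKM in control cells, 10.03 FPKM with JUN WT and 5.10 FPKM with JUN AA, so there it was highest in JUN WT (1.16), where MT1E was lowest. SLC39A6 differed by 1.05 between JUN WT and JUN AA, at 11.6 and 5.09 FPKM.

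Of 10 exporters and vesicle loaders of the SLC30 family, 5 passed with JUN overexpression and 6 in the JNKi table. SLC30A1, the exporter of the plasma membrane and a known target of MTF1, was at 5.58, 4.65 and 3.88 FPKM in the control, JUN WT and JUN AA, and at 13.9, 17.6 and 12.4 FPKM in MRC5, iCAFs and iCAFs+JNKi. It was not 2-fold different in any comparison, and it was lowest in JUN AA, where the metallothioneins were highest. SLC30A5, which loads zinc into the secretory pathway, was the only one past the limit, at 4.87 FPKM in control cells, 13.8 FPKM with JUN WT (1.33) and 5.71 FPKM with JUN AA. MTF1 was at 0.769, 1.19 and 0.736 FPKM in the control, JUN WT and JUN AA, and at 3.94, 4.46 and 3.36 FPKM in MRC5, iCAFs and iCAFs+JNKi. On the log2(FPKM + 1) scale MTF1 thus differed by at most 0.34 in size between any 2 libraries of a table. With JUN overexpression, however, it did not pass the expression limit, and this scale understates changes that low. As FPKM it was 1.62-fold higher in JUN WT than in JUN AA, and 1.996-fold after rescaling.

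**Figure D5:**
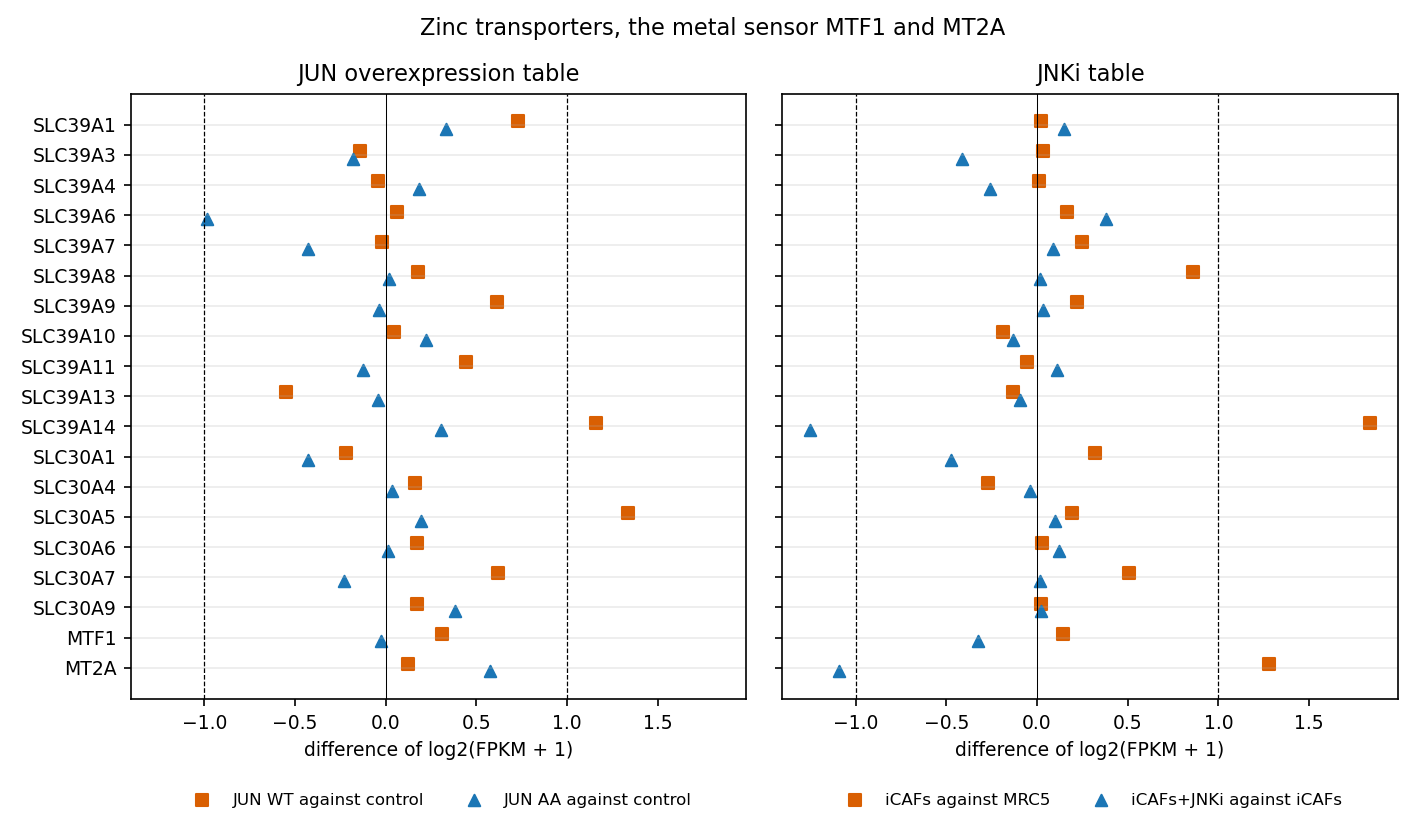
Difference of log2(FPKM + 1) for zinc importers (SLC39A), zinc exporters and vesicle loaders (SLC30A), MTF1 and MT2A, with the comparisons of the JUN overexpression table on the left and those of the JNKi table on the right; dashed lines mark the 2-fold limit. SLC39A14 is the only transporter beyond the limit in the JNKi table, in the direction of MT2A in both comparisons.

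Genes next to the cluster were read beside the members. Of the 10 protein-coding neighbours on chromosome 16, 5 on each side, 7 passed the expression limit in both tables. None of them was at least 2-fold different in any comparison except NLRC5, a regulator of MHC class I genes, which was at 8.74 FPKM in the control and 3.62 FPKM in JUN AA (-1.08). BBS2, the nearest neighbour before the cluster, was at 13.6 FPKM for MRC5, 16.6 FPKM for iCAFs and 11.1 FPKM for iCAFs+JNKi. NUP93, the nearest after it, was at 18.2, 17.5 and 14.9 FPKM.

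Markers of the fibroblasts themselves differed in the same comparisons. With JNKi, 5 of 10 were at least 2-fold higher than in iCAFs, the collagens COL3A1 (2.65) and COL1A1 (1.07), the matrix proteoglycans LUM (2.02) and DCN (1.93), and the growth factor receptor PDGFRB (1.65). In iCAFs DCN (-1.46) and S100A4 (-1.27) were at least 2-fold lower than in MRC5 and none was higher. Against MRC5, iCAFs+JNKi had COL1A1 (1.11), COL3A1 (1.99), LUM (1.77), PDGFRB (1.41) and FN1 (1.51) higher and VIM (-1.26) lower.

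LUM followed the order of MT1E in the JUN overexpression table, at 94.5 FPKM in control cells, 24.9 FPKM with JUN WT and 240 FPKM with JUN AA. Its difference was -1.88 for JUN WT and 1.34 for JUN AA against control, and -3.22 between them. With JUN WT, COL1A1 (-1.23) and PDGFRB (-2.06) were also past the limit and below control cells, as were COL3A1 (-1.15), PDGFRB (-1.87) and FN1 (-1.01) with JUN AA. FN1 was higher in JUN WT than in JUN AA (1.08). Of the other markers, KRT8 (-1.58) and KRT18 (-1.22) were below and CD68 (1.37) above control cells with JUN WT, KRT18 (-1.80) was below them with JUN AA, and CD68 differed by 1.44 between JUN WT and JUN AA. The summed FPKM of the 10 fibroblast markers was 6804, 6108 and 4918 in the control, JUN WT and JUN AA, and 7640, 7933 and 11970 in MRC5, iCAFs and iCAFs+JNKi. The part of these differences in those of the metallothioneins was not tested.

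Likeness to MT2A was measured as the Euclidean distance over 4 differences (JUN WT and JUN AA against control, iCAFs and iCAFs+JNKi against MRC5) among 10020 genes that passed the limit in both tables. The closest genes were SNHG9 (a distance of 0.453), PLA2G4A (0.542), ST20 (0.616), SOCS3 (0.650) and MAP3K4 (0.651). SOCS3, a feedback inhibitor of cytokine signalling, was at 15.9, 12.04 and 21.0 FPKM in the control, JUN WT and JUN AA, and at 8.78, 23.2 and 13.4 FPKM in MRC5, iCAFs and iCAFs+JNKi. PLA2G4A, a phospholipase that releases arachidonic acid, was at 0.617, 2.48 and 1.24 FPKM in the latter 3. At levels this low its likeness to MT2A holds on the log2(FPKM + 1) scale only. SNHG9 lay below MRC5 in iCAFs+JNKi (-0.21), whereas MT2A lay above it (0.19). MT1G itself passed only in the JUN overexpression table, and its differences in the JNKi table, both -0.34, come from 0.261 FPKM in MRC5 against listed zeros, so its likeness rests on the JUN overexpression libraries. The genes closest to it were GMFB (0.255), NDUFB7 (0.297), USP16 (0.343), NAA38 (0.356) and FIS1 (0.361). NDUFB7, a subunit of mitochondrial complex I, was at 607, 356 and 1135 FPKM in the control, JUN WT and JUN AA. MT1G was at 1.36, 0.184 and 3.10 FPKM there, so low that the log2(FPKM + 1) scale understates its changes. Its FPKM in the control was 7.39 times, and in JUN AA 16.8 times, its FPKM in JUN WT. As such ratios the 5 genes closest to MT1G changed less, so their likeness to it holds on the log2(FPKM + 1) scale only. Both comparisons within a table share the control or MRC5 library, and the distances are descriptions over 6 libraries.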

How the data were processed

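The members and all gene lists were chosen with earlier results of these data known. The deposited values are FPKM per gene, which the authors made by mapping reads to hg19 with HISAT2 2.1.0 and quantifying with StringTie 2.1.1 (versions as in the submitters' processing notes). Annotation, strand setting, read length and depth are not given in the sources used here, so the precision of single values is unknown. FPKM do not suit count models, and none was fitted. Where rows shared a symbol, the one with the highest mean was kept. Differences of log2(FPKM + 1) were computed within a table in Python 3.11.15 with numpy 2.4.6 and pandas 2.3.3, where the mean of a gene reached 1 FPKM, and counted from a size of 1. The procedure was tested on simulated data. Named in the report or the closing section were all metallothioneins, listed genes at least 2-fold different, MTF1, SLC30A1, neighbours and the 5 genes closest to MT2A and to MT1G. Transcripts were read from GENCODE on GRCh37, with length and GC content for 91.1% (JUN overexpression) and 90.4% (JNKi) of the genes compared. Alternatives were a pseudocount of 0.1, rescaling to a sum of 1000000, centring, summed rows, 20-bin length and GC trends, 1.5-fold, other filters and other sums. Adding MT1L to MT1E and centring the background were chosen after seeing the data. Figures were drawn with matplotlib 3.10.9.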

Additional observations from a re-analysis of the deposited data

How the results depend on the processing

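With 1 library per condition the error of every value is unknown, and a value was taken as moved where it changed by over 0.25 on the log2 scale or a count by over 1.5 times. No direction of a member at least 2-fold different was reversed by any alternative run. A pseudocount of 0.1 cannot reverse a direction, and summing rows of one symbol left the value of every member as it was. Without MT2A, the log2 difference of the family sum was -0.47 for JUN WT and 1.07 for JUN AA against control, -1.54 for JUN WT against JUN AA, 1.81 for iCAFs against MRC5, -0.12 for iCAFs+JNKi against iCAFs and 1.68 against MRC5, beside 0.08, 0.62, -0.54, 1.32, -0.98 and 0.34 with it. These sums rest on MT1E and MT1X. Rescaling to a common FPKM total gave 0.31 for JUN AA against control and -0.24 for JUN WT against JUN AA. Removing length and GC trends gave -0.25 for JUN WT against JUN AA, -0.69 for iCAFs+JNKi against iCAFs and 0.73 against MRC5. For JUN WT against control, 1 member was 2-fold higher with a pseudocount of 0.1, with rescaling or at 1.5-fold (0 as reported), and 2 were lower with that pseudocount, rescaling or centring and 3 at 1.5-fold (1 as reported). The FPKM sums of control and JUN WT were close, at 494603 and 498514. Rescaling raised both, so that the added 1 weighed less and low genes passed 2-fold more easily. At 1.5-fold 5 members were higher in JUN AA (3 as reported). A pseudocount of 0.1 added 1 lower member in iCAFs and in iCAFs+JNKi against MRC5 (0 as reported), and centring or trend removal left 1 lower in iCAFs+JNKi against iCAFs (2 as reported). In all, 31 recomputed values of the family sum did not move and 11 did. Summing rows of one symbol left the family sum as it was, and a pseudocount of 0.1 hardly touches a sum this high. Values of these settings among the 31 therefore could not move. The length and GC trend taken from the sum was that of MT2A. The share of all genes at least 2-fold different was 0.891% to 3.0% without a filter, beside 1.71% to 6.92% with it, and reached 11.9% with a pseudocount of 0.1 and 17.2% with rescaling. Beyond what the settings themselves do, the cause was not tested. No paired analysis was possible because each condition has 1 library and no test was made.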

Other observations

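Other gene lists that respond to metals or stress were set beside the family, with values only. Of 10 genes that handle copper, the other metal that metallothioneins bind, 9 passed the expression limit with JUN overexpression and 10 in the JNKi table. SLC31A2, a copper transporter of endosomes, was at 3.36 FPKM in control cells, 17.6 FPKM with JUN WT (a difference of 2.09) and 3.05 FPKM with JUN AA. Between JUN WT and JUN AA it differed by 2.20. COMMD1, which takes part in copper export, was at 10.4, 66.8 and 33.1 FPKM, differences of 2.58 and 1.59 from the control. SCO2, a copper chaperone of cytochrome oxidase, was at 71.4, 40.2 and 124 FPKM, and JUN WT differed from JUN AA by -1.60. None of the 10 was at least 2-fold different in the JNKi table, where the copper chaperone ATOX1 was at 91.0, 82.8 and 69.7 FPKM in MRC5, iCAFs and iCAFs+JNKi.

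Of 8 genes known to respond to glucocorticoids, which also act on metallothioneins, 7 passed in the JNKi table, and KLF9 (1.22), SGK1 (1.18) and DUSP1 (1.38) were at least 2-fold higher in iCAFs than in MRC5. DUSP1, a phosphatase of JNK and related kinases, differed by -1.06 between iCAFs+JNKi and iCAFs and was at 32.6 FPKM for MRC5, 86.7 FPKM for iCAFs and 41.1 FPKM for iCAFs+JNKi, the order of MT2A. KLF9 was at 1.54, 4.92 and 6.25 FPKM, the order of MT1X, and in iCAFs+JNKi it was 1.51 and SGK1 1.24 above MRC5 on the log2(FPKM + 1) scale. FKBP5 and TSC22D3, also of this list, were not higher in iCAFs, at differences of -0.38 and -0.27, and SGK1 differed by -1.09 between JUN AA and control.

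HMOX1, the heme oxygenase gene that oxidative stress and metals switch on, was at 82.6 FPKM in control cells, 34.3 FPKM with JUN WT and 118 FPKM with JUN AA, the order of MT1E. In the JNKi table it was at 17.2 FPKM for MRC5, 8.85 FPKM for iCAFs and 25.8 FPKM for iCAFs+JNKi, so that it was lowest where MT2A was highest. Among the 9 heat shock genes listed, HSPD1 was at least 2-fold higher in JUN WT (1.09) and HSP90AA1 (1.23) and HSPE1 (1.43) in JUN AA than in the control, and none of the 9 was in iCAFs against MRC5. Between JUN WT and JUN AA, HSPA1A differed by 1.08, HSPE1 by -1.54 and HMOX1 by -1.76, and between iCAFs+JNKi and iCAFs HMOX1 differed by 1.44.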
